A study of Homo sapiens with 36 samples.

Results

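YAP1 and WWTR1 were followed across every RNA-seq library of a study of breast cell transformation, to describe how deeply each gene was lowered by its own siRNA, how each responded when the other was targeted, and how their balance differed between a non-transformed breast line and a breast cancer line. The 2 genes were picked by name, with no measured value used, from the 60725 Ensembl genes of the deposited tables. YAP1 (ENSG00000137693.13) encodes YAP and lies on the plus strand at chr11:102110447-102233424 of GRCh38 (hg38). WWTR1 (ENSG00000018408.14) encodes TAZ and lies on the minus strand at chr3:149517235-149736714. The tables hold 36 libraries in 18 groups of 2. Of these, 20 came from ER-Src cells, which are MCF-10A, a non-transformed breast epithelial line, carrying the v-Src oncoprotein fused to the ligand-binding domain of the estrogen receptor. The ER-Src cells received a control siRNA (Ctrli) or siRNA against YAP (YAPi), TAZ (TAZi), STAT3 (STAT3i) or JUNB (JUNBi), and each was collected in ethanol (ETH, non-transformed) and in tamoxifen (TAM, which turns the fusion on). The other 16 libraries came from MDA-MB-231, a triple-negative breast cancer line, in sets with controls of their own. Set 1 held Ctrli, YAPi, TAZi, YAPi_TAZi (both siRNAs) and TEADi (siRNA against TEAD, with the member of the family not named), and set 2 held Ctrli, JUNBi and STAT3i. The treatment protocol names tamoxifen at 0.4 to 1 μM together with the Src inhibitor AZD0530 at 2 to 4 μM, and the methods give either a short or a day-long treatment after siRNA transfection. The dose and time of each library within these were not given. Each line is a single line, every knockdown is transient, and the labels do not say whether replicates were separate cultures, so the p-values measure the spread between libraries, which may be technical.

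YAP and TAZ are transcriptional co-activators that do not bind DNA themselves and reach it mainly through TEAD proteins. The Hippo kinases MST and LATS phosphorylate both proteins, which holds them in the cytoplasm and marks them for degradation, so much of their control happens after the RNA is made. In breast epithelium and in triple-negative breast cancer cells the pair is known for driving growth and loss of contact control, and the proteins overlap in function.

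The single siRNA that the study lists for each gene is shown first, because whether it could also pair with the paralog bears on how cross-responses are read. The methods name commercial pools for ER-Src cells, whose sequences are not shown here, so the knockdown values below may not come from the printed sequences. The sense strands read 5′ to 3′ as follows, with capitals for the bases that pair with the guide seed (guide bases 2 to 8).
YAP1 siRNA: gacaucuucugGUCAGAGa
WWTR1 siRNA: acguugacuuaGGAACUUu
The YAP1 sequence of 19 bases matched the coding part of YAP1 at chr11:102114365-102114383 and was present in 8 of 11 annotated YAP1 transcripts. An exact match was also found in the processed pseudogene YAP1P1, while the closest ungapped stretch in WWTR1 transcripts differed at 7 positions. The WWTR1 sequence matched coding sequence at chr3:149520887-149520905 in 6 of 12 annotated transcripts. It had no exact match in another annotated gene, and its closest stretch in YAP1 transcripts differed at 6 positions. Neither single siRNA therefore had a full match in the paralog. Matches of the seed bases alone were not searched for.

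The start-site regions are printed because the responses of one gene to loss of the other, and to STAT3 and JUNB siRNA, are described below. The motifs searched were GGAATG for TEAD, TGANTCA for AP-1 and TTCNNNGAA for STAT, on both strands in RefSeq windows (GRCh38.p14) that run from 250 bases before a gene start to 50 bases after it. The 250 bases before the start are shown, with capitals for a motif match.
YAP1, chr11:102110197-102110446, plus strand: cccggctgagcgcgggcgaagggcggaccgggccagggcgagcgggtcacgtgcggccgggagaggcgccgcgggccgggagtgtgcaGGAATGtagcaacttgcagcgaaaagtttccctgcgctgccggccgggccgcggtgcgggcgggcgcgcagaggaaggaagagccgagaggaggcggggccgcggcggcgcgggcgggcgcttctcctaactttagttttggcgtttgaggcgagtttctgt
WWTR1, chr3:149658026-149658275, minus strand: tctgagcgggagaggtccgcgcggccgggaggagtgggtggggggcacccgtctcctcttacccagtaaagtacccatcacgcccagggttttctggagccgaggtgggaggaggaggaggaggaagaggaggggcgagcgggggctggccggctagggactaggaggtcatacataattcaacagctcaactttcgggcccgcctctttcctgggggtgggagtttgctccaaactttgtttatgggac
The YAP1 window held GGAATG once, 162 bases before the start. The WWTR1 window printed, and the window of a second start at chr3:149703224-149703523, held none of the motifs. Among 35116 promoter windows of the same length, GGAATG was found in 14.03%, TGANTCA in 7.71% and TTCNNNGAA in 7.66%. A match describes letters in a window and not binding.

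Total expected counts ranged from 6416159 to 19153233 in ER-Src, and from 7290495 to 18076140 in MDA-MB-231 set 2. Set 1 stood apart in itself, since its controls held 13456764 to 13534549 counts while its 8 knockdown libraries held 1411300 to 2784553. The summed share of 7 abundant RNAs that lack poly(A), such as RN7SK and RMRP, was 11.55% to 14.4% per ER-Src library and 11.9% to 14.8% per knockdown library of set 1. In the controls of set 1 and in set 2 it was at most 0.0116%, so libraries were of different types and each comparison across types carries that difference. Among the set 1 knockdowns, replicates 1 and 2 also differed in the fragment length used by RSEM (48.0 against 74.6 bases subtracted from each transcript). The labelled lines held by their markers: KRT5, a basal keratin, was at 1012 to 2622 TPM (transcript abundance corrected for length and depth) in ER-Src and at most 11.49 TPM in MDA-MB-231, and VIM, AXL and CD44 were higher in every MDA-MB-231 library than in any ER-Src library. EPCAM, listed as low in MDA-MB-231, was at 3.1 to 17.4 TPM there, and markers of blood, endothelium and liver did not exceed 1.79 TPM in any library.

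On the TPM scale, which corrects for transcript length and so allows genes to be compared, YAP1 was the more abundant RNA in ER-Src. In the 16 ER-Src libraries that did not receive its siRNA, YAP1 ranged from 23.4 to 38.5 TPM with a median of 29.3, and WWTR1 in the 16 without TAZi ranged from 4.83 to 9.23 TPM with a median of 6.52. The 7 RNAs that lack poly(A) took 20.6% to 51.5% of TPM in ER-Src and the set 1 knockdowns, and at most 0.0498% elsewhere. So TPM was not on a like scale across groups. As counts scaled to the library total (CPM), WWTR1 was highest in the set 1 controls, at 150 and 140 against at most 73.9 elsewhere. YAP1 was not, with 199 and 191 CPM there, 217 and 246 in set 1 TAZi and 177 and 199 in TEADi. In TPM both genes were highest in the set 1 controls of MDA-MB-231, with no overlap with the next group. These controls held 64.2 and 60.4 TPM of YAP1 and 54.1 and 49.5 TPM of WWTR1. Below that group, the order of YAP1 was set 1 TAZi and TEADi, then the 8 untargeted ER-Src groups, then set 2 at 9.88 to 13.6 TPM, and last the 4 groups that received YAP siRNA at 4.25 to 7.14 TPM. Within the ER-Src block neighbouring groups overlapped except for TAZi ETH against TAZi TAM, at 28.8 and 29.3 against 28.1 and 25.03 TPM. For WWTR1 the order after the set 1 controls ran through set 2 and the set 1 TEADi and YAPi groups, then the ER-Src groups without TAZi, and ended with the 4 groups that received TAZ siRNA at 0.57 to 4.34 TPM. After the set 1 controls, neighbouring groups overlapped except for ER-Src STAT3i ETH against Ctrli TAM, ER-Src YAPi TAM against the set 1 YAPi_TAZi group, and ER-Src TAZi ETH against TAZi TAM.

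**Figure D1:**
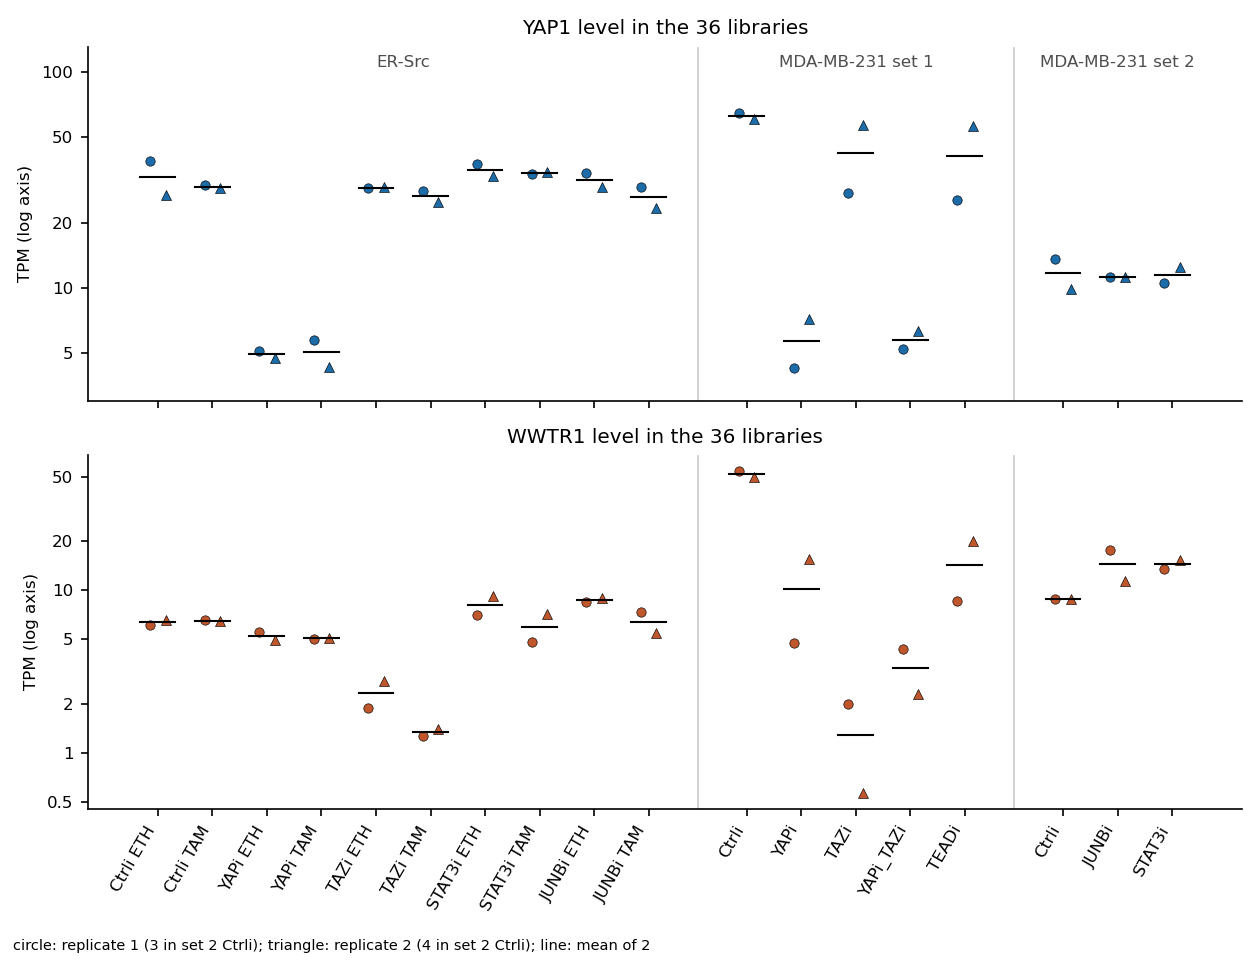
YAP1 (top) and WWTR1 (bottom) in each of the 36 libraries, in TPM on log axes, with 1 column per group, circles and triangles for the 2 replicates and a line at their mean. The groups with YAP siRNA sit at 4.25 to 7.14 TPM of YAP1 and those with TAZ siRNA at 0.57 to 4.34 TPM of WWTR1.

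In ER-Src each gene fell with its own siRNA in both treatments. YAP1 was at 38.5 and 26.8 TPM in Ctrli ETH and at 29.8 and 28.9 TPM in Ctrli TAM, against 5.1 and 4.74 TPM in YAPi ETH and 5.74 and 4.31 TPM in YAPi TAM. The 4 YAPi libraries lay far below every other ER-Src library, with no overlap. Fold changes below are log2 values from DESeq2, which compares expected counts after scaling each library, and a gene was called at an adjusted p under 0.01. YAP1 fell by 2.49 in TAM (SE 0.14, adjusted p = 2.5e-70, 17.75% of the control level left) and fell by 2.38 in ETH (adjusted p = 1.85e-62, 19.2% left). Of all genes tested, 10.7% were called for YAPi in TAM and 11.6% in ETH.

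WWTR1 was at 6.15 and 6.61 TPM in Ctrli ETH and at 6.59 and 6.44 TPM in Ctrli TAM, against 1.89 and 2.77 TPM in TAZi ETH and 1.28 and 1.4 TPM in TAZi TAM. The TAZi libraries were the 4 lowest of ER-Src. WWTR1 fell by 2.22 in TAM (SE 0.25, adjusted p = 5.29e-17, 21.4% left) and fell by 1.86 in ETH (adjusted p = 4.58e-11, 27.6% left), where 3.42% and 5.24% of all genes tested were called. With both treatments in 1 fit, 18.4% of YAP1 RNA and 24.4% of WWTR1 RNA was left, where 23.4% and 9.16% of all genes were called. No difference in depth between treatments was called by the interaction test, which gave -0.13 for YAP1 and -0.39 for WWTR1 (unadjusted p = 0.249 for WWTR1, with no adjusted p because the gene fell under the DESeq2 filter of that fit). These are averages over a bulk culture, in which fewer cells with the RNA and less RNA per cell cannot be told apart.

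In ER-Src no rise of one gene was detected after siRNA against the other. With YAPi, WWTR1 was at 5.51 and 4.95 TPM in ETH and at 5.04 and 5.11 TPM in TAM, all lower than the 6.15 to 6.61 TPM of the controls. As scaled counts (CPM, counts scaled to the library total with no length correction) the groups overlapped, at 32.2 to 36.8 in YAPi and 32.03 to 37.1 in Ctrli, and the mean WWTR1 transcript length that RSEM assigned was longer in YAPi (2619 to 2986 bases) than in Ctrli (2189 to 2497 bases). So the lower TPM went with the length estimate and not with the counts. The log2 change of WWTR1 in YAPi was -0.18 in TAM (95% interval -0.55 to 0.20, adjusted p = 0.644) and -0.05 in ETH (-0.43 to 0.33, adjusted p = 0.926). Over both treatments it was -0.11, with an interval from -0.31 to 0.09, so a rise above 0.09 on the log2 scale lay outside the interval.

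With TAZi, YAP1 was at 28.8 and 29.3 TPM in ETH and at 28.1 and 25.03 TPM in TAM. In TAM both libraries were under the Ctrli libraries, and in ETH both fell between them. The log2 change of YAP1 was -0.17 in TAM (-0.42 to 0.07, adjusted p = 0.581) and -0.19 in ETH (-0.44 to 0.06, adjusted p = 0.456). Over both treatments it was -0.17 with an interval from -0.33 to -0.01, which left 88.8% of the control level and was not called (unadjusted p = 0.0388, adjusted p = 0.164). The interaction test called no difference between TAM and ETH in either response, at -0.14 for WWTR1 in YAPi and -0.00 for YAP1 in TAZi. Over all 4 siRNAs, DESeq2 and edgeR called no such difference for either gene, and at an unadjusted p under 0.05 each tool gave 0 for YAP1 and 1 for WWTR1. Of all genes tested, such a difference was called for 0.498% (YAPi), 1.6% (TAZi), 1.43% (STAT3i) and 0.288% (JUNBi).

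Neither tamoxifen nor the siRNAs against STAT3 and JUNB gave a called change of either gene. In Ctrli, TAM against ETH gave 0.08 for YAP1 (-0.14 to 0.30, adjusted p = 0.903) and 0.24 for WWTR1 (-0.14 to 0.63, adjusted p = 0.700), in a comparison where 6.21% of all genes were called. Averaged over the 5 siRNAs the change was 0.02 for YAP1 (-0.09 to 0.12) and -0.03 for WWTR1 (-0.18 to 0.13), while 12.6% of all genes were called. STAT3 and JUNB are the transcription factors that the study set beside YAP and TAZ. YAP1 was at 37.4 and 33.0 TPM in STAT3i ETH, 33.4 and 34.5 TPM in STAT3i TAM, 33.8 and 29.1 TPM in JUNBi ETH and 29.2 and 23.4 TPM in JUNBi TAM. These ranges overlap the controls in ETH, STAT3i TAM lay above Ctrli TAM, and JUNBi TAM held 1 library within the Ctrli TAM range and 1 under it.

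WWTR1 varied more between these groups, at 7.08 and 9.23 TPM in STAT3i ETH, 4.83 and 7.11 TPM in STAT3i TAM, 8.48 and 8.94 TPM in JUNBi ETH and 7.39 and 5.45 TPM in JUNBi TAM. In ETH both siRNAs gave libraries above both controls, and in TAM both spanned the controls. None of these was called: the log2 changes of WWTR1 were 0.21 (STAT3i) and 0.17 (JUNBi) in ETH and -0.37 (STAT3i, -0.77 to 0.02, adjusted p = 0.241) and 0.00 (JUNBi, -0.39 to 0.39) in TAM. The share of all genes called was 0.189% for STAT3i and 2.8% for JUNBi in ETH, and 8.22% and 6.9% in TAM. Replicates of STAT3i ETH and JUNBi ETH differed most among the ER-Src groups. Their chi-square per degree of freedom, a measure of spread beyond counting noise, was 42.7 and 51.6 against 8.4 in Ctrli ETH. RSEM also subtracted 49.0 bases per transcript in STAT3i and JUNBi, and 49.5 in the other ER-Src libraries. The lack of a call in ETH thus does not show that WWTR1 was unchanged. The change of WWTR1 in STAT3i was lower in TAM than in ETH, with a difference of -0.59 (unadjusted p = 0.0353, adjusted p = 0.586), which was not called. JUNB itself fell by 2.03 in JUNBi TAM but in ETH its change of -1.16 missed the threshold (adjusted p = 0.0637). Whether the knockdown was shallower in ETH than in TAM was not tested. The JUNBi ETH replicates were unequal, with JUNB at 3.9 and 8.55 TPM against 11.94 and 12.99 TPM in Ctrli ETH. STAT3 fell by 2.66 in STAT3i TAM and fell by 1.88 in STAT3i ETH. Of the 8 comparisons of an siRNA with Ctrli in ER-Src, YAP1 and WWTR1 were each called in 2, the ones with their own siRNA, with DESeq2 and with edgeR alike. Beyond those 2, no comparison gave an unadjusted p under 0.05 with DESeq2, and edgeR gave 1, for WWTR1 in STAT3i TAM.

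**Figure D2:**
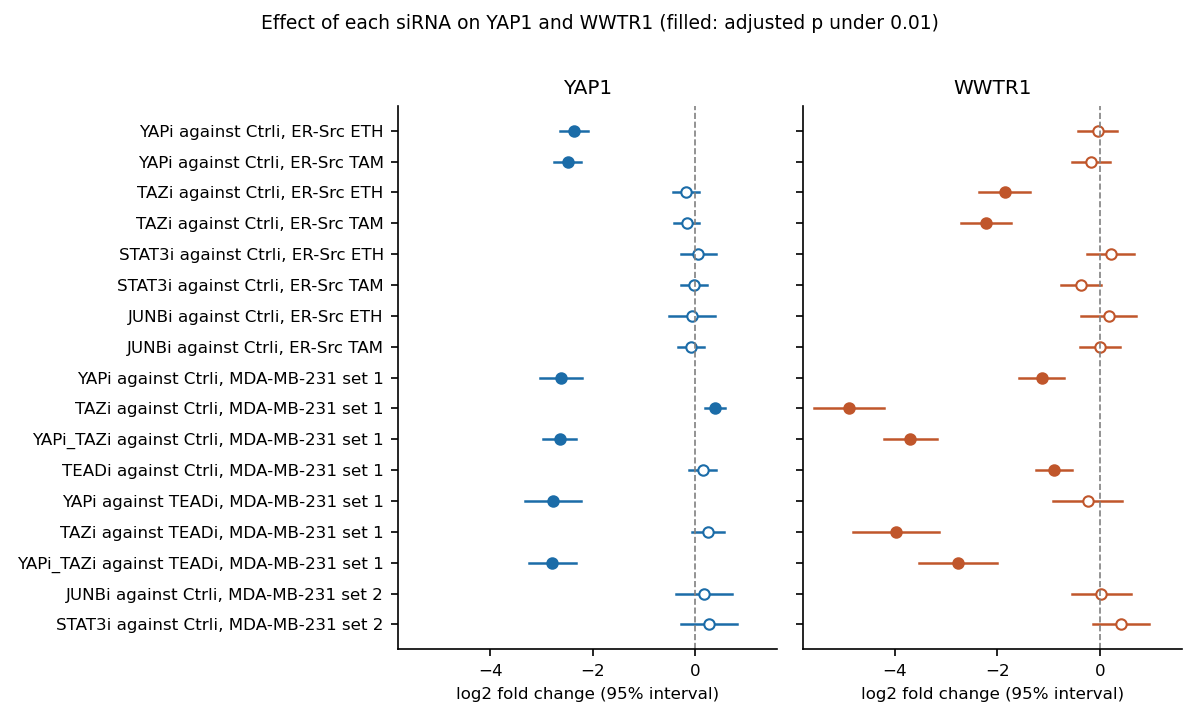
Log2 fold change of YAP1 (left) and WWTR1 (right) from DESeq2 on the horizontal axis, with 1 row per comparison, lines for the 95% interval and filled points for an adjusted p under 0.01. In ER-Src the filled points are those of a gene's own siRNA, from -2.49 to -1.86, and every other interval there includes 0.

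MDA-MB-231 set 1 allowed the same questions in a cancer line, including the joint knockdown. Every set 1 knockdown library differed in type from the set 1 controls, so knockdown and library type cannot be told apart against Ctrli. Each result is given also against TEADi, a knockdown of the same library type in which neither gene was targeted. Since YAP and TAZ reach DNA mainly through TEAD, a change that TEADi shares with YAPi or TAZi would not show against it. YAP1 was at 4.25 and 7.14 TPM in YAPi and at 5.22 and 6.3 TPM in YAPi_TAZi, in replicates 1 and 2, against 64.2 and 60.4 TPM in Ctrli and 25.4 and 55.8 TPM in TEADi. The knockdown libraries lay under both references with no overlap. YAP1 fell by 2.63 in YAPi (16.1% left, adjusted p = 3.11e-34) and fell by 2.65 in YAPi_TAZi (15.9% left) against Ctrli, with changes of -2.78 and -2.79 against TEADi. Of all genes tested, 24.4% were called for YAPi and 35.6% for YAPi_TAZi against Ctrli, but 3.91% and 4.67% against TEADi.

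WWTR1 also fell with its own siRNA in this line. It was at 2.0 and 0.57 TPM in TAZi and at 4.34 and 2.29 TPM in YAPi_TAZi, against 54.1 and 49.5 TPM in Ctrli and 8.61 and 20.2 TPM in TEADi. The TAZi values rest on 9.76 and 10.0 expected counts and those of YAPi_TAZi on 21 and 14, so they are coarse. WWTR1 fell by 4.90 in TAZi (3.36% left, adjusted p = 4.18e-44) and fell by 3.70 in YAPi_TAZi (7.69% left) against Ctrli, where 32.8% of genes were called for TAZi. Against TEADi, the changes were -3.98 in TAZi and -2.77 in YAPi_TAZi, and 8.4% of genes were called for TAZi. The depth of the joint knockdown against TEADi rested on 1 library: without YAPi_TAZi replicate 2 the change was -2.26 and was no longer called (adjusted p = 0.0177).

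YAP1 in the joint knockdown differed from that in YAPi alone by -0.00, with an interval (-0.93 to 0.92) too wide to say that they were alike. It held less WWTR1 than YAPi, with a log2 difference of -2.50 (adjusted p = 4.37e-05, 4.83% of all genes called). Without YAPi_TAZi replicate 2 that difference was -2.03 (adjusted p = 0.0538) and without YAPi replicate 2 it was -2.14 (adjusted p = 0.0442), neither of which was called. A fit blocked by replicate, whose numbers also separate the fragment lengths of these libraries, gave -2.52 and did not call it (adjusted p = 0.0238). Against TAZi alone, the joint knockdown held less YAP1 (-3.05), and its WWTR1 was 1.19 higher with an interval of -0.28 to 2.66 that includes 0 (adjusted p = 0.419, 6.66% of all genes called).

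With YAP siRNA, WWTR1 was called lower in this line when set against the controls, while against the knockdown of the same library type its lower value was not called. It was at 4.76 and 15.49 TPM in YAPi, or 44.6 and 70.6 CPM, against 150 and 140 CPM in Ctrli and 62.0 and 73.9 CPM in TEADi. YAPi lay under Ctrli in both replicates, and its CPM values bracketed the lower TEADi library. Against Ctrli WWTR1 fell by 1.14 (-1.58 to -0.69, adjusted p = 4.76e-06), but in TEADi it also fell by 0.89 (-1.25 to -0.54, adjusted p = 5.96e-06), where 27.5% of all genes were called. Against TEADi the YAPi value was -0.24 (-0.91 to 0.42, adjusted p = 0.884). An effect shared by YAPi and TEADi and a difference in library type cannot be told apart here. Within replicate 1, the log2 CPM difference of YAPi from TEADi was -0.47 and within replicate 2 it was -0.07, while the differences from Ctrli were -1.75 and -0.99. Both falls against Ctrli lost their call when a control library was left out: for YAPi, -1.11 without Ctrli replicate 1 (adjusted p = 0.0217) and -1.20 without replicate 2 (adjusted p = 0.0101), and for TEADi, -0.87 without replicate 1 (adjusted p = 0.0466) and -0.96 without replicate 2 (adjusted p = 0.021).

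YAP1 with TAZ siRNA showed the reverse sign. It was at 217 and 246 CPM in TAZi, against 199 and 191 CPM in Ctrli and 177 and 199 CPM in TEADi, so both TAZi libraries lay above all 4. In TPM, however, TAZi held 27.5 and 56.9, under the 64.2 and 60.4 of Ctrli, so that the direction depends on the scale. The 7 RNAs that lack poly(A) took 21.4% and 50.5% of all TPM in TAZi and at most 0.0268% in Ctrli. That share lowers the TPM of other genes, so TPM was not on a like scale in TAZi and Ctrli. The log2 change of YAP1 was 0.39 against Ctrli (0.19 to 0.58, adjusted p = 3.78e-04) and 0.25 against TEADi (-0.06 to 0.56, adjusted p = 0.385), and TEADi against Ctrli gave 0.14 (-0.12 to 0.41, adjusted p = 0.440). Within replicates the log2 CPM difference from TEADi was 0.30 and 0.31, and from Ctrli 0.12 and 0.36. The call was lost without Ctrli replicate 1 (0.39, adjusted p = 0.236), without Ctrli replicate 2 (0.33, adjusted p = 0.357) and without TAZi replicate 2 (0.26, adjusted p = 0.0799). A fit blocked by replicate gave 0.38 (adjusted p = 0.0654).

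**Figure D3:**
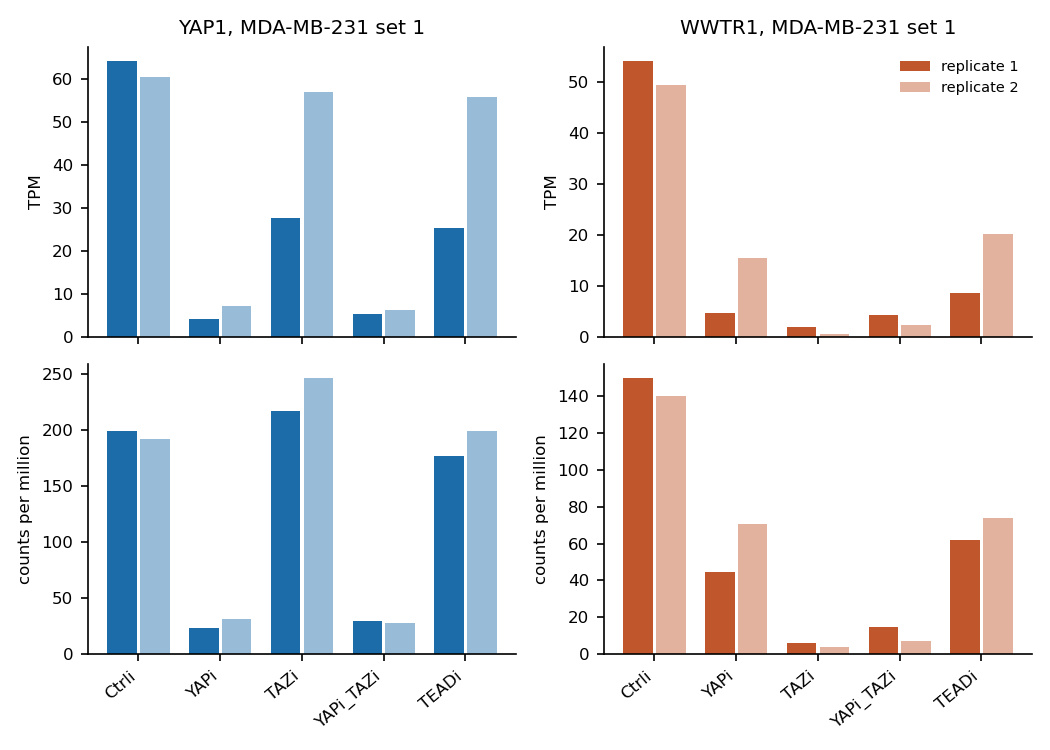
YAP1 (left) and WWTR1 (right) in the 10 MDA-MB-231 set 1 libraries, in TPM (top) and in CPM (bottom), with bars from 0, dark for replicate 1 and pale for replicate 2. YAP1 in the TEADi replicates was closer on the CPM scale, at 177 and 199, than in TPM, at 25.4 and 55.8.

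Set 2 of MDA-MB-231 showed no called change of either gene. YAP1 was at 13.6 and 9.88 TPM in Ctrli, 11.2 and 11.2 TPM in JUNBi and 10.5 and 12.5 TPM in STAT3i, which all overlap. WWTR1 was at 8.88 and 8.91 TPM in Ctrli, 17.8 and 11.4 TPM in JUNBi and 13.5 and 15.46 TPM in STAT3i, so all 4 knockdown libraries lay above both controls in TPM. By counts the difference shrank, with log2 changes of WWTR1 of 0.03 in JUNBi (-0.55 to 0.61, adjusted p = 0.969) and 0.41 in STAT3i (-0.13 to 0.96, unadjusted p = 0.137). For YAP1 they were 0.17 in JUNBi (-0.37 to 0.71) and 0.27 in STAT3i (-0.28 to 0.81). In these comparisons 3.41% and 0.497% of all genes tested were called, and neither gene had an adjusted p in STAT3i. The JUNBi and STAT3i comparisons share their controls.

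The ratio of YAP1 to WWTR1 places both genes on 1 scale within a library. In the 12 ER-Src libraries in which neither gene was targeted, YAP1 TPM was 3.26 to 6.92 times WWTR1 TPM, with a median of 4.39, and WWTR1 made up 12.6% to 23.48% of the sum of both. The siRNAs moved the ratio in opposite directions: it was 0.843 to 1.14 in the 4 YAPi libraries and 10.6 to 22.0 in the 4 TAZi libraries, and neither range overlaps the untargeted one. The sum of both TPM values was 28.9 to 44.6 in the untargeted libraries, 9.42 to 10.8 in YAPi and 26.4 to 32.1 in TAZi, so all 4 YAPi libraries lay below the untargeted range, and 1 of the 4 TAZi libraries lay below it (TAZi TAM replicate 2, at 26.4). Across those 12 libraries YAP1 and WWTR1 varied with little relation to each other, with Pearson's r of log2 TPM of 0.17 and of log2 CPM of 0.012. The 12 points come from 6 conditions of 2 libraries each.

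In its controls and in set 2, MDA-MB-231 held the genes in nearer balance. The ratio was 1.19 and 1.22 in the set 1 controls, 1.53 and 1.11 in the set 2 controls, and 0.629 to 1.53 over all set 2 libraries. Each of these libraries had a lower ratio than any untargeted ER-Src library. Over the 4 control libraries of each line the mean log2 ratio was 0.33 in MDA-MB-231 and 2.25 in ER-Src, a difference of -1.93 (two-sided exact permutation p = 0.0286, the smallest that 70 arrangements allow). With expected counts over a common length the difference was -1.88. It held in the controls of set 1 and of set 2, which differ in depth. Both held a low share of the 7 RNAs that lack poly(A), so they do not differ in type by that measure. ER-Src libraries were of another type than either control group, and line and library type cannot be told apart. In ER-Src, TAM against ETH changed the mean log2 ratio by 0.15 in the untargeted libraries (two-sided exact permutation within siRNA, p = 0.435, with 0.00926 the smallest possible). In set 1 the ratio was 0.893 and 0.461 in YAPi, 13.8 and 99.8 in TAZi, 1.2 and 2.75 in YAPi_TAZi and 2.95 and 2.77 in TEADi. The TEADi libraries, in which neither gene was targeted, thus stood above the controls of the same set. They lay just under the lowest untargeted ER-Src ratio of 3.26. Their share of the 7 RNAs, at 12.9% and 14.7%, was like that of ER-Src.

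**Figure D4:**
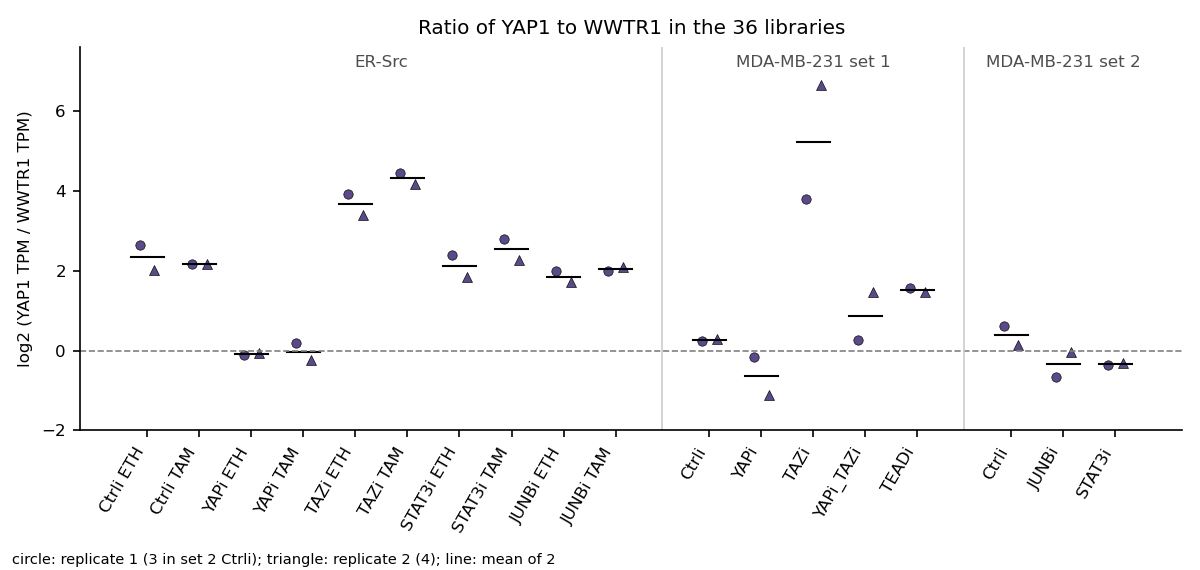
Log2 of the ratio of YAP1 TPM to WWTR1 TPM in each of the 36 libraries (vertical axis), with 1 column per group, circles and triangles for replicates, a solid line at their mean and a dashed line where both are equal. Untargeted ER-Src libraries lie at ratios of 3.26 to 6.92 and the MDA-MB-231 controls at 1.11 to 1.53.

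The lines were also compared gene by gene with the same siRNA, MDA-MB-231 minus the mean of ER-Src ETH and TAM. WWTR1 was higher in the set 1 controls by 1.66 (3.15-fold, adjusted p = 1.50e-50), in a comparison where 46.3% of all genes were called, but in the set 2 controls it was -0.20 (-0.56 to 0.17, adjusted p = 0.347). YAP1 was lower in the set 2 controls, at -2.12 (adjusted p = 1.56e-38, 53.1% called), while in the set 1 controls its difference of -0.18 was not called (adjusted p = 0.0257) although it was higher there in TPM and CPM. So which of the genes differed between the lines depended on the control set, while the lower ratio was found with both. The set 2 controls themselves held less of both RNAs than the set 1 controls, with differences of -1.87 for YAP1 and -1.78 for WWTR1 (adjusted p = 2.42e-16 and 4.54e-17, 40.8% of all genes called). The same line with the same control siRNA thus differed between sets by more than it differed from ER-Src for YAP1 in set 1.

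With YAPi, the line difference was -0.46 for YAP1 and 0.55 for WWTR1 (32.7% of all genes called), and with TAZi it was 0.32 for YAP1 and -1.23 for WWTR1 (32.9% called), none of which was called (adjusted p = 0.0547, 0.0307, 0.0297 and 0.0219). Leaving out set 1 YAPi replicate 1 made WWTR1 with YAPi a called difference of 0.83 (adjusted p = 0.00651). The contrast of YAPi with TAZi uses each knockdown as the other's reference and avoids the set 1 controls. That contrast differed between the lines by -0.76 for YAP1 (-1.16 to -0.36, adjusted p = 0.00952) and by 1.82 for WWTR1 (0.98 to 2.67, adjusted p = 0.00172), with 2.35% of all genes called, and edgeR called neither. In set 2, the YAP1 difference from ER-Src was -1.86 with STAT3i and -1.86 with JUNBi, both called, and WWTR1 was 0.31 and -0.24, neither called (55.2% and 49.3% of all genes called).

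Other genes of the pathway were counted in ER-Src beside the share of all genes called. A list of 27 genes held 12 of the kinase module that phosphorylates YAP and TAZ, 4 inhibitors that bind them, 5 DNA-binding partners and competitors, 3 genes of their turnover and 3 targets. With YAPi in TAM, 2 of 27 were called, both lower (5.4% of all genes were called lower), and with TAZi in TAM 1 of 26 tested was called, lower (1.68%). In ETH, 1 of 26 was lower with YAPi (6.47%) and 2 of 26 were higher with TAZi (2.6%). Median log2 changes of the list were -0.08, -0.10, 0.10 and -0.01 in that order, against 0.01, -0.00, -0.00 and -0.01 over all genes tested. The YAPi counts lie near or below the shares over all genes, and the TAZi counts lie above them. Counts of 1 or 2 genes are too few to compare, and nothing particular to the list is read from them. In the kinase module DESeq2 called no gene in the 4 comparisons, and edgeR called 1, MOB1B, an activator of the LATS kinases, at -0.68 in YAPi TAM (adjusted p = 0.00845).

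TEAD2 is a TEAD family transcription factor through which YAP and TAZ reach DNA. It was the only gene of the list called in both treatments with YAPi or with TAZi. It was at 6.81 and 3.79 TPM in Ctrli ETH and 6.12 and 5.88 TPM in Ctrli TAM, against 2.24 and 2.43 TPM in YAPi ETH and 2.77 and 2.25 TPM in YAPi TAM, with no overlap. TEAD2 fell by 0.98 in TAM (adjusted p = 0.00152) and fell by 0.96 in ETH (adjusted p = 0.00438). With TAZi TEAD2 was not called. It was at 4.46 and 3.36 TPM in TAZi ETH, overlapping the controls, and at 4.53 and 3.98 TPM in TAZi TAM, under both controls. The list was not tested with STAT3i or JUNBi. TEAD2 was also low in JUNBi, at 1.67 and 1.39 TPM in ETH and 2.97 and 2.3 TPM in TAM. In STAT3i it was at 4.46 and 3.77 TPM in ETH and 5.34 and 4.05 TPM in TAM. In a fit blocked by replicate, 1 of 27 genes was called in YAPi TAM, which was CCN1, and none in the other comparisons, so TEAD2 did not keep its call.

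The remaining called genes are named after their values were seen. CCN1, a secreted matrix protein and a standard YAP/TAZ target, was at 14.5 and 15.2 TPM in Ctrli TAM, 5.77 and 4.95 TPM in YAPi TAM and 9.59 and 7.53 TPM in TAZi TAM. CCN1 fell by 1.29 with YAPi (adjusted p = 4.95e-11) and fell by 0.81 with TAZi (adjusted p = 0.00113) in TAM, and in ETH its changes were 0.00 and -0.14. With edgeR the fall with YAPi was called and that with TAZi was not (adjusted p = 0.0210). The other targets did not pass the test in TAM, with CCN2 at -1.03 and -1.35 and ANKRD1 at -1.01 and -1.13 for YAPi and TAZi. AMOTL2, an angiomotin family protein that binds YAP, and VGLL4, which competes with YAP and TAZ for TEAD, rose with TAZi in ETH by 0.50 and 0.84 (adjusted p = 0.00841 and 0.00859), but edgeR called neither (adjusted p = 0.0307 and 0.0147). For the other line, 15 of 27 genes of set 1 were called with YAPi and 23 of 27 with TAZi, beside 24.4% and 32.8% of all genes tested, with the difference in library type in both.

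**Figure D5:**
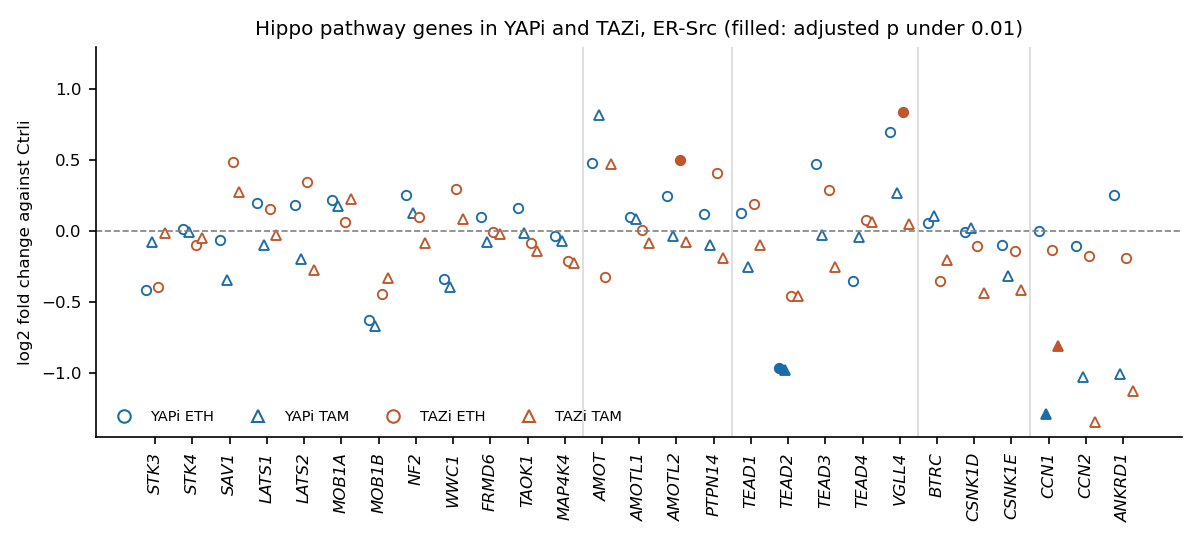
Log2 fold change against Ctrli (DESeq2, vertical axis) of the 27 pathway genes in ER-Src, set apart by role, with blue for YAPi, orange for TAZi, circles for ETH, triangles for TAM and filled points for an adjusted p under 0.01. The filled points are TEAD2 with YAPi and CCN1 with either siRNA under 0, and AMOTL2 and VGLL4 with TAZi above it.

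The genes whose log2(TPM + 1) followed each member most closely over the 20 ER-Src libraries were ranked among 6956 genes with a mean of at least 5 TPM. For YAP1 they were RPS2 (Pearson's r = 0.950), RPS9 (0.947) and SHMT2 (0.940), and for WWTR1 they were MPC2 (0.908), MTA2 (0.870) and PDCD6 (0.866). Most of this likeness came with the targeted libraries, since over the 16 libraries without the member's own siRNA the values were 0.433, 0.455 and 0.497 for YAP1 and 0.608, 0.33 and 0.527 for WWTR1. In the 16 MDA-MB-231 libraries the values were 0.064, -0.001 and 0.422 for YAP1, and 0.814, 0.871 and 0.822 for WWTR1. The libraries share depth and type within each set, and the MDA-MB-231 points fall into groups that differ in both.

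Reads of overlapping genes and copies were few. The antisense transcripts ENSG00000277459 and ENSG00000254422 over YAP1 reached at most 29 expected counts, and WWTR1-AS1 and WWTR1-IT1 reached 9.52 and 2.0. The YAP1 pseudogenes YAP1P1 and YAP1P3 reached 9.09 and 2.0 counts, and YAP1P2 and RNU6-1098P were at 0 in every library. Whether the counting used strand was not given, so reads of a gene and of its antisense partner cannot be told apart. RSEM's own 95% credibility interval did not contain the TPM of YAP1 in 4 of 10 set 1 libraries, nor that of WWTR1 in 5 of 10 set 1 and 5 of 20 ER-Src libraries, which is why counts are given beside TPM where a result turns on them.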

How the data were processed

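Libraries were made with the TruSeq Ribo Profile Mammalian kit per the labels. The set 1 controls and set 2, with at most 0.0116% of the 7 RNAs that lack poly(A), differed in type from the other libraries. Whether that kit made all of them is therefore not certain. Per the study's methods, the authors aligned reads with STAR (up to 20 alignments per read) to GENCODE 30 on hg38 and estimated genes with RSEM. The deposited tables give, for 1 library each, expected counts, TPM, transcript length and effective length, and other columns with 95% credibility bounds. Tool versions and strand setting were not given in the sources used here. Of 61471 identifiers, 746 that are not Ensembl genes were left out (at most 0.109% of counts), and 93.1% of the 60725 Ensembl genes matched GENCODE 44, from which coordinates come. Expected counts were rounded and tested with DESeq2 1.42.0 (default size factors, Wald test, Benjamini-Hochberg adjustment over all genes tested, called at adjusted p under 0.01), in a separate run for each pair of groups as the authors did. Alternatives were edgeR 4.0.16 (quasi-likelihood test), TMM factors, a mean count of at least 10, effective length as an offset, 1 fit over all groups, the replicate number as a block, other controls and leaving out each library. The scripts were tested on simulated data. Ratios of TPM were compared by exact permutation in Python 3.11.15 with SciPy 1.17.1, and R was 4.3.3. With 2 libraries against 2 a permutation test cannot reach significance, so none was made between single groups. Replicate pairs differed by more than sampling noise in every group. Named genes were YAP1, WWTR1, genes overlapping or copied from them and the 3 genes most correlated with each over ER-Src. Also named were STAT3 and JUNB as a check of the labels, and the pathway genes called in both treatments with YAPi or with TAZi. CCN1, CCN2, ANKRD1, AMOTL2, VGLL4 and MOB1B fall outside this rule and were named after their values were seen. The members and lists were chosen with earlier results of these data known.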

Additional observations from a re-analysis of the deposited data

Results flagged for a closer look

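The response to YAPi relative to TAZi differed between the lines for YAP1, at -0.76 on the log2 scale (MDA-MB-231 set 1 minus ER-Src, DESeq2 interaction over 12 libraries, adjusted p = 0.00952). For WWTR1 the same difference was 1.82 (adjusted p = 0.00172). Neither was called by edgeR. Line, depth and, in set 1 replicate 2, fragment length differ together between these libraries and cannot be told apart.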

How the results depend on the processing

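The falls of YAP1 with YAP siRNA and of WWTR1 with TAZ siRNA against Ctrli kept their direction under every alternative run, and in ER-Src they kept their call in each that gave an adjusted p. Without Ctrli TAM replicate 1, WWTR1 in TAZi TAM had no adjusted p (-2.22, unadjusted p = 1.23e-07). With other settings, 395 of the values that answer a comparison kept direction and side of the threshold, and the rest are listed here, with the cause not tested. When a library was left out, 349 kept both. In both counts, a run that gave no adjusted p was judged by its direction alone.

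Changes of sign in ER-Src were all of values near 0: YAP1 in YAPi, TAM minus ETH, at 0.048 with effective length as an offset, YAP1 in TAZi, TAM minus ETH, at 0.031 with TMM factors and 0.0097 in 1 fit over all groups, YAP1 in STAT3i at 0.049 over both treatments and 0.024 in TAM with TMM factors, and WWTR1 in JUNBi TAM at -0.0043 with edgeR, -0.018 with a mean count of at least 10, -0.21 with effective length and -0.020 in 1 fit over all groups. In MDA-MB-231, YAP1 in YAPi_TAZi against YAPi was 0.016 with a mean count of at least 10 and 0.000813 in 1 fit over all groups, and with effective length YAP1 was -0.29 in JUNBi and -0.16 in STAT3i of set 2 and -0.10 for the line difference with TAZi.

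Calls of set 1 depended most on the processing. For YAP1 in TAZi, TMM factors gave 0.28 and 1 fit over all groups 0.42, both uncalled. With effective length, YAP1 in TEADi was 0.73 and called, while WWTR1 in TEADi (-0.50), in TAZi against TEADi (-3.21) and in YAPi_TAZi against YAPi (-1.51) were not, nor was WWTR1 in TEADi in 1 fit over all groups (-0.86). With the controls of both sets, YAP1 was -1.89 (YAPi), 1.12 (TAZi) and -1.90 (YAPi_TAZi), while WWTR1 was -0.42 in YAPi and -0.18 in TEADi, all uncalled, and in set 2 the signs turned, to -1.09 and -0.98 for YAP1 and -1.17 and -0.77 for WWTR1 in JUNBi and STAT3i. With the other set 1 knockdowns as reference and the replicate block, WWTR1 was -0.26 in YAPi and 0.26 in TEADi, and YAP1 was 0.25 in TAZi and -0.25 in TEADi, none called.

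Between the lines, YAP1 in the set 1 controls was called at -0.23 with edgeR, -0.23 with a mean count of at least 10 and -0.99 with effective length, WWTR1 with YAPi at 0.61 and YAP1 with TAZi at 0.38 with a mean count of at least 10, and WWTR1 with TAZi at -1.23 with edgeR. The difference of YAPi against TAZi between lines was not called with edgeR (-0.78 for YAP1, 1.80 for WWTR1) or effective length (-0.49 and 1.39), and TMM factors turned the split of its called genes from 173 higher and 124 lower to 139 and 153. With effective length, the genes called for TAZi in ETH went from 367 higher and 372 lower to 343 and 590.

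The labels do not say what a replicate number marks and each comparison has 2 pairs, so the main fits used no pairing. Among the set 1 knockdowns the number did separate the libraries, with 48.0 bases subtracted per transcript in replicate 1 and 74.6 in replicate 2. Their main fits leave that difference between replicates out. The correlation of deviations was -0.06 to 0.34 between ER-Src groups, -0.02 to -0.01 between set 1 knockdowns and Ctrli and 0.49 to 0.52 among set 1 knockdowns. With the replicate block, YAP1 in TAZi of set 1 was 0.38 and WWTR1 in YAPi_TAZi against YAPi was -2.52 (adjusted p = 0.0238), both uncalled, the line difference of YAP1 was -0.76 (adjusted p = 0.015), and YAP1 in YAPi_TAZi against YAPi was 0.0054. The pathway genes called with the block were 1 and 0 for YAPi and TAZi in TAM and 0 and 0 in ETH, and edgeR called 3 for YAPi and 0 for TAZi in TAM, 2 for YAPi in ETH and 0 for TAZi in ETH.

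Leaving out 1 library at a time moved these values across 0 or across the threshold. In ER-Src, for YAP1 they were TAZi, TAM minus ETH (-0.12 to 0.12), STAT3i over both treatments (-0.069 to 0.050), in TAM (-0.071 to 0.045), in ETH (-0.10 to 0.20) and TAM minus ETH (-0.23 to 0.056), and JUNBi in ETH (-0.19 to 0.049) and TAM minus ETH (-0.17 to 0.064). For WWTR1 they were JUNBi in TAM (-0.074 to 0.086) and YAPi in ETH (-0.13 to 0.033). In set 1 against Ctrli they were WWTR1 in YAPi (-1.55 to -0.87) and TEADi (-1.09 to -0.81) and YAP1 in TAZi (0.26 to 0.42) and TEADi (-0.0083 to 0.20). Among set 1 knockdowns they were WWTR1 in YAPi against TEADi (-0.61 to 0.061), YAPi_TAZi against TEADi (-3.36 to -2.26) and YAPi_TAZi against YAPi (-3.13 to -2.03), and YAP1 in YAPi_TAZi against YAPi (-0.21 to 0.21). In JUNBi of set 2 they were YAP1 (-0.051 to 0.43) and WWTR1 (-0.20 to 0.22), and between lines WWTR1 with YAPi (0.16 to 0.83) and with JUNBi (-0.43 to 0.039). With 2 libraries a group, a group reduced to 1 was assumed to vary like the other, and the 10 to 21 counts of WWTR1 in the set 1 TAZ knockdowns limit their precision.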
